A study of Mus musculus with 12 samples.

Results

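The transcriptome of iNKT1 cells, the T-bet-dependent subset of invariant natural killer T (iNKT) cells, was compared in the thymus between mice with and without a conditional deletion of the transcription factor gene Ets1. A gene was taken if 3 or more of the 6 thymus libraries held a value of 10 or more for it, which left 11173 of the 14004 genes in the table. The controls carried Tbx21Cre and a Rosa26-YFP+ reporter. The knockout cells (cKO) carried the same Cre and reporter together with Ets1F/F, floxed alleles that Cre can delete. Each genotype had 3 thymus libraries, and 3 liver libraries of each genotype entered the same model. Cells were sorted as CD1d-Tetramer+ and YFP+, so that every group had expressed Cre. Since Cre is driven by Tbx21, the gene of the T-box factor T-bet, deletion can begin only once a cell expresses Tbx21, and a YFP+ cell need not have lost both Ets1 alleles. The labels do not say whether libraries came from separate mice, so that the p-values reflect only how far these samples spread, and that spread may be technical.

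Ets1 belongs to the ETS family, whose members share a DNA-binding domain that reads a GGAA core, and it is abundant in resting T cells and NK cells. iNKT cells arise in the thymus from CD4+ CD8+ thymocytes that recognise glycolipids presented by CD1d. The iNKT1 subset depends on T-bet and the IL-15 receptor chain CD122, carries NK receptors and the contents of cytotoxic granules, and makes interferon gamma. Loss of Ets1 is known to impair NK cell and iNKT cell development.

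Depth was between 18.5 M and 32.2 M recovered reads (M, 1e6 reads) in the 6 thymus libraries. Control libraries 1 and 2 stood apart from the others in the number of genes without a read and in mitochondrial ribosomal RNA. They had 3528 and 2824 genes of the table without a read, against 1782 in control library 3 and 1415 to 2176 in the cKO libraries. Mitochondrial ribosomal RNA took 30.0% and 34.2% of their deposited values, against 24.2% to 25.8% in the other 4. Control library 3 was most like cKO library 2, with a Pearson correlation of log2(value + 1) across the tested genes of 0.848. Pairs of the same genotype had 0.698 to 0.790. The counts of calls are given with and without control libraries 1 and 2, and so are many of the named changes. Changes given with 1 value can also differ, and those of uncalled genes can change sign, without these 2 libraries. The fit without them leaves 1 control thymus library, which is assumed to vary as the other groups do. In bulk samples, fewer cells of a type and less RNA per cell cannot be told apart. The 15 genes of the iNKT1 marker list, among them Il2rb, Nkg7 and Slamf7, were present in all 6 libraries. The list also holds Cd3e and Cd3d, T cell receptor genes that do not mark this subset, so that its sum is not specific to iNKT1 cells. The summed value of the 15 was 163831 to 208297 in control and 182143 to 232725 in cKO libraries, and none was called.

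All differences are limma estimates on log2(value + 1). They are given with their standard error (SE), and adjusted p means the Benjamini-Hochberg value over all 13058 genes tested in the 12 libraries. For low or uneven genes the estimate can be larger or smaller than that from recovered reads. Itgad had 7.69 by limma and 3.90 by edgeR on recovered reads, S1pr5 6.97 and 4.66, and Rasgrp2 -6.87 and -4.80. Pias4 (6.64 and 7.64) and Cd93 (-7.86 and -8.71) went the other way. The 3 values of a group are given in the order of libraries 1, 2 and 3, and 0 stands for no read. A gene is called at an adjusted p of at most 0.05, and a pair of numbers in brackets after a gene gives its log2 fold change and its limma adjusted p. By this rule 83 genes were called, 41 higher and 42 lower in cKO thymus. That is 0.636% of the genes tested in either direction (0.314% higher and 0.322% lower) and 0.743% of the 11173. All 83 belonged to the 11173, and in all 83 the 3 cKO libraries lay wholly above or below the 3 control libraries. Such a separation was found in 12.7% of all genes tested (7.6% higher and 5.05% lower in cKO). Over all tested genes the log2 fold change had a median of 0.24 on the deposited scale and -0.03 after rescaling by TMM, and the called genes lie at least 0.76 from the former. After rescaling by TMM the typical log2 fold change dropped by 0.30, so that small positive values of uncalled genes can turn negative. This shifted the split of calls to 27 higher and 90 lower. Of the 47 gene lists, 11 had a median that turned from positive to negative after TMM, and 15 had a median whose sign changed without control libraries 1 and 2. As the median of all tested genes was above 0, most were positive on the deposited scale. Their exact share was not computed, so counts of positive or negative list members below are only descriptions. The largest rises reached 7.69 and the largest falls -8.63 on the log2 scale among genes with a usable symbol.

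**Figure D1:**
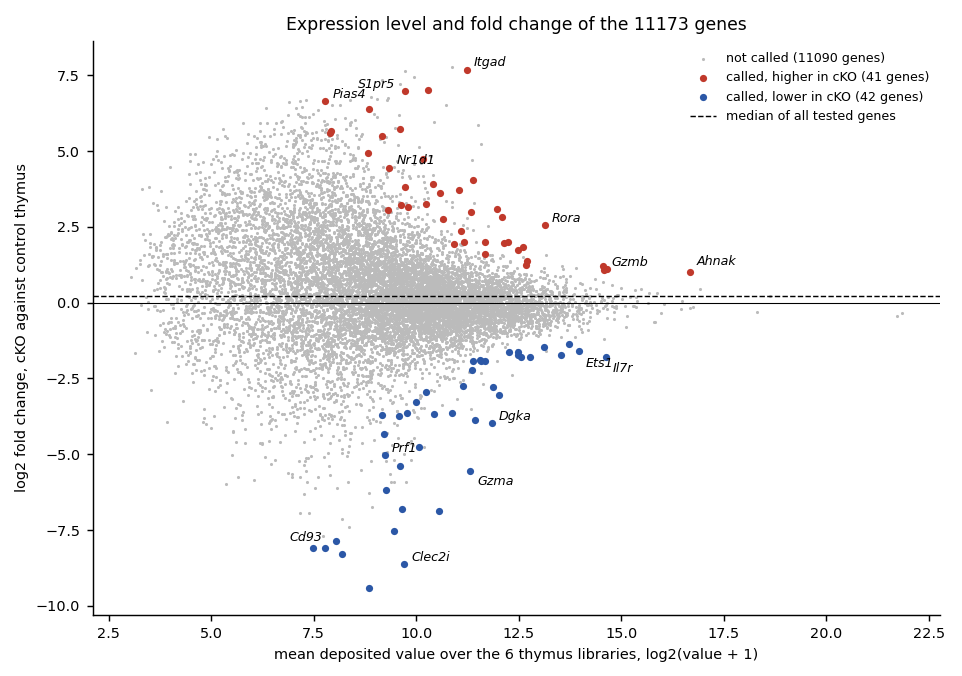
Mean deposited value over the 6 thymus libraries as log2(value + 1) on the x axis, against the log2 fold change of cKO over control thymus on the y axis, for the 11173 genes. The 41 genes called higher in cKO are red and the 42 called lower are blue. The dashed line is the median of all tested genes (0.24). Called genes at low level lie far from it, and called genes at high level, such as Ahnak, Gzmb and Il7r, lie nearer.

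The number of calls depended on single libraries. Without control thymus library 1 or 2, 43 genes were called each time, and without control library 3 541 were. Without cKO library 1, 2 or 3 the numbers were 27, 43 and 21. Without control libraries 1 and 2 together, 4 genes were called, and 3 of those were among the 83 (Dgka, Rora and Themis). All 83 kept their direction in that fit. In 32 of the 41 rises, control library 3 was the highest control, and this held for all 13 rises above 4 on the log2 scale. In 26 of the 42 falls, control library 3 was the lowest control. The share of all tested genes with library 3 as the highest or lowest control was not computed, so these counts are only descriptions. Whether the state of control libraries 1 and 2 had a part in the called rises and falls was not tested. With liver left out of the model, limma called 0 genes in the 6 thymus libraries, with 952 at an unadjusted p under 0.05. All 83 were among those 952. The p-values above thus rest on a spread that liver libraries helped to estimate. On recovered reads, edgeR's quasi-likelihood test called 51 genes and DESeq2 619, and these included 47 and 81 of the 83. EdgeR did not call 36 of the 83, of which 27 were rises. The falls that it did not call were Ifi204, Rasgrp2, Gzma, Myo6, Noa1, Slc4a7, Eno1, Kif21b and Ipcef1. Among the rises that it did not call were Gzmb, Ikzf3, Klf6, Atp8a1, Tmem131, Tecr, Rbpj, Slc25a24, Btla, Themis, Itgb3, Ampd2, Etfb, Lman1, Nrp2, Nr1d1, Kcnn4, Trerf1, Dzank1, Emb, Gcnt2, Rnf19b, Mansc1, S1pr5, Nebl and Itgad. After TMM limma did not call 14 of the 41 rises, among them Ahnak (adjusted p = 0.073), Gzmb (0.16), Ikzf3 (0.16), Klf6 (0.13) and Btla (0.051), and also Atp8a1, Tmem131, Tecr, Slc25a24, Ddx43, Ampd2, Etfb and Nrp2.

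**Figure D2:**
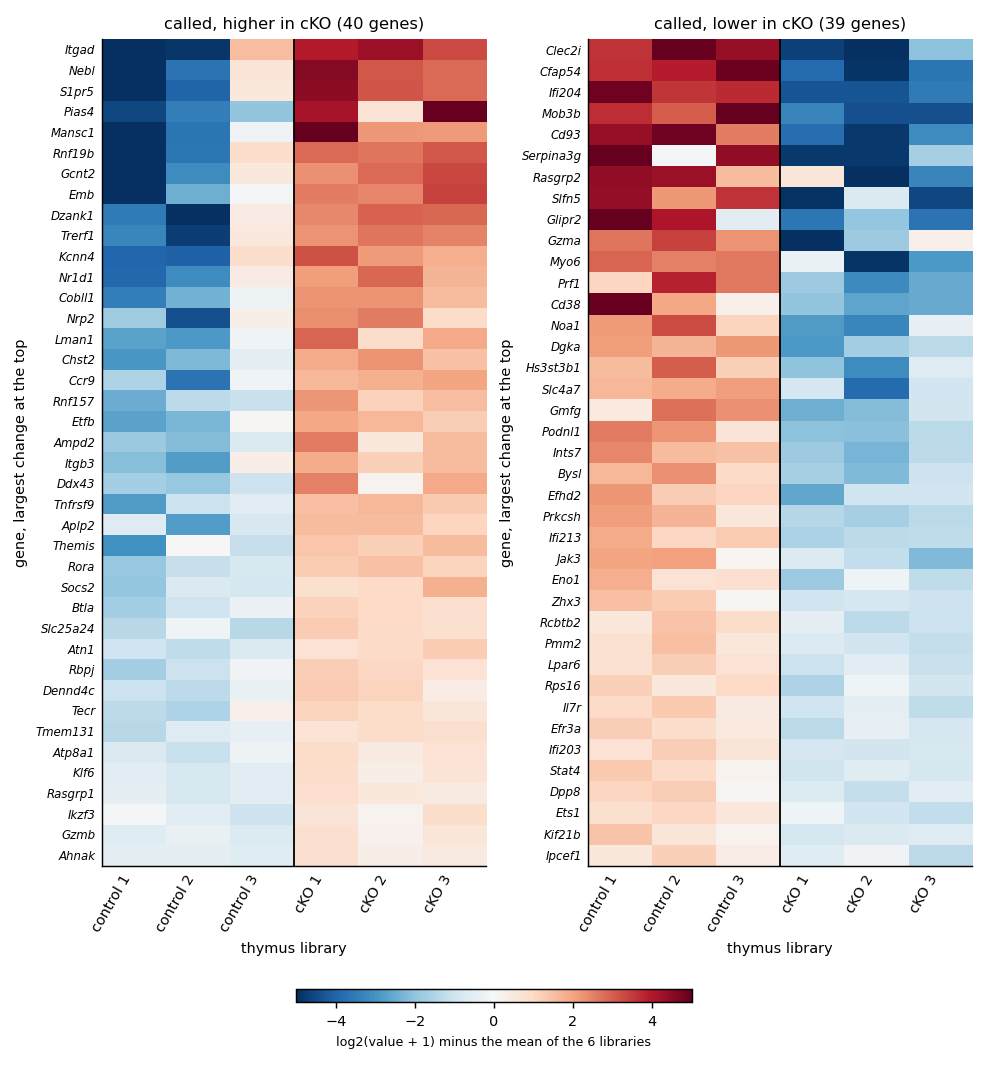
Called genes of the naming rule in each thymus library, 40 higher in cKO on the left and 39 lower on the right, ordered with the largest change at the top. Colour gives log2(value + 1) minus the gene's mean over the 6 libraries, with red above and blue below that mean. In the upper rows of the left panel, control libraries 1 and 2 are far below control library 3.

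Calls of 15 genes held without any single thymus library. The 5 rises among them were Ahnak, Rasgrp1, Rora, Chst2 and Cobll1. The 10 falls were A630023P12Rik (a long noncoding RNA outside the naming rule), Clec2i, Cfap54, Dgka, Hs3st3b1, Podnl1, Ints7, Efhd2, Ifi213 and Ifi203. The other 68 lost their call without at least 1 library. In thymus, A630023P12Rik and Cfap54 reached a value of 10 only in control libraries, so that their kept calls are only descriptions.

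Ets1 itself (chromosome 9, 32636221 to 32757820, plus strand, GRCm38) checked the labels. It had values of 23692, 28051 and 19493 in control libraries and 11817, 7069 and 5788 in cKO libraries. The highest cKO library, library 1, stayed below the lowest control library, library 3, so the groups did not overlap. The log2 fold change was -1.58 ± 0.27 (limma adjusted p = 0.0095). Without cKO library 3 it was -1.36 (limma adjusted p = 0.072), and over the alternatives run the adjusted p ranged from 9.5e-05 to 0.8. Reads were summed over the whole gene and may come from exons outside the floxed part or from cells that kept an allele. Tbx21, which drives the Cre, had 1386, 5762 and 1868 in control and 4285, 3673 and 6832 in cKO libraries. Control library 2 was above 2 of the 3 cKO libraries, so the groups overlapped, and the log2 fold change of 0.95 ± 0.44 did not pass (limma adjusted p = 0.37). Without control library 2 it was 1.56 (limma adjusted p = 0.070).

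The ETS family list had 14 tested genes, of which 0 were called higher and 1 (Ets1) lower. Its median was -0.14 (0.02 after quantile normalisation), beside 0.24 for all tested genes. The members with the highest means, Elf1, Elf4, Fli1 and Elk4, had log2 fold changes of -0.3, -0.42, -0.17 and -0.1 and overlapped between genotypes.

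Promoters of the 3 falls and 3 rises with the smallest adjusted p that had a promoter window in RefSeq's table for GRCm38 are shown because ETS factors read the core GGAA. Each run is the 250 bases before a transcription start that RefSeq gives, 5′ to 3′ on the gene's strand. That start lies 229 bases from the outer gene end in GENCODE for Dgka and 124 bases from it for Rasgrp1, and at most 1 base from it for the others. Capitals mark GGAA or its reverse complement TTCC. The windows of the falls are Dgka (chr10:128745085-128745334, minus strand), Clec2i (chr6:128887337-128887586, plus strand) and Ifi203 (chr1:173942673-173942922, minus strand). Those of the rises are Rora (chr9:68653536-68653785, plus strand), Ahnak (chr19:8989034-8989283, plus strand) and Rasgrp1 (chr2:117342878-117343127, minus strand).
Dgka: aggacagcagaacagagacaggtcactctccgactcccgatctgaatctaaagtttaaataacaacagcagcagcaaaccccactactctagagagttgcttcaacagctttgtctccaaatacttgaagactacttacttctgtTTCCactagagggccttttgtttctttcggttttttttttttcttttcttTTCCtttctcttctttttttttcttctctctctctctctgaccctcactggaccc
Clec2i: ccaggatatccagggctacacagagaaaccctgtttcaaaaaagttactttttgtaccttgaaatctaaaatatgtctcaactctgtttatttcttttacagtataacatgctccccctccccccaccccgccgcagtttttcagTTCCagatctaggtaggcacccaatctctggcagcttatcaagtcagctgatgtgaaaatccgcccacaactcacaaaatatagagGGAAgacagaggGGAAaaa
Ifi203: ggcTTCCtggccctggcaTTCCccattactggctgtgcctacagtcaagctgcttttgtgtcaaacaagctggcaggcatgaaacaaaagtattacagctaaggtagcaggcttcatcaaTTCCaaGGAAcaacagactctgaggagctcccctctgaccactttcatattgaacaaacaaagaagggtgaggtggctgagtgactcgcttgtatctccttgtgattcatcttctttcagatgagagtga
Rora: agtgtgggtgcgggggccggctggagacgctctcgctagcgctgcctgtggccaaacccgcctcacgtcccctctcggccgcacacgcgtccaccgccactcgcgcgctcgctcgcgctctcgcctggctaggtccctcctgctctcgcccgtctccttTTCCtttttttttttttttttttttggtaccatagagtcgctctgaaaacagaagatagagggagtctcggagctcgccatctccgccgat
Ahnak: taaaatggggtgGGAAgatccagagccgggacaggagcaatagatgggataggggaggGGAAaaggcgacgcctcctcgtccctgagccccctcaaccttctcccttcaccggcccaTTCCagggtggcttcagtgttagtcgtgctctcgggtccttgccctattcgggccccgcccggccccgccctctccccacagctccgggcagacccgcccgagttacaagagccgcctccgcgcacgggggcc
Rasgrp1: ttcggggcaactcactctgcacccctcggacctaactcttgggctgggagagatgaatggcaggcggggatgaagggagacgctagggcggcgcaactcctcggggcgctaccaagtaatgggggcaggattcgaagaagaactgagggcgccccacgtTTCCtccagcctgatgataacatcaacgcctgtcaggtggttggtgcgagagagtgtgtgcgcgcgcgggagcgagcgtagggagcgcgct
The core occurred 2, 3 and 4 times in the windows of the falls and 1, 3 and 1 times in those of the rises. It was present in 93.4% of all 32851 windows in the table, so that most promoters hold it. The longer form CCGGAA (or TTCCGG on the other strand), which contains the core, was absent from all 6. It was found in 11.1% of the 45 windows of 32 called falls and in 12.2% of the 41 windows of 32 called rises. Among the 11554 windows of tested genes the share was 22.8%, and among all windows 12.03%. These are matches of letters and say nothing of binding.

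Of 25 nuclear receptors tested, 2 rose (Rora and Nr1d1) and 0 fell. Rora, which encodes a nuclear receptor that binds DNA as a monomer, had the smallest adjusted p of all rises. Its values were 1693, 2822 and 3534 in control and 14836, 17429.7 and 13387 in cKO libraries. The lowest cKO library was 3.79 times the highest control. The log2 fold change was 2.56 ± 0.29 (limma adjusted p = 0.0004), and it was 2.1 without control libraries 1 and 2 (limma adjusted p = 0.027, within 1.2e-12 to 0.8 over the alternatives). Nr1d1, the gene of the haem-binding repressor REV-ERB alpha, which competes with ROR receptors for DNA sites, had 14.6, 25.5 and 311 in control and 1014, 1746 and 768 in cKO libraries. Control library 3 was 12.2 times the next control here, and the log2 fold change of 4.46 ± 0.99 (limma adjusted p = 0.045) became 1.83 without them. The list median was 0.48. The nuclear receptors with the highest means, Nr3c1 and Nr2c2, had log2 fold changes of 0.29 and 0.48 and overlapped.

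Ikzf3 encodes Aiolos, a zinc finger factor of the Ikaros family. It stood at 22115, 15752 and 11493 in control and 36274, 26094 and 42310.0 in cKO libraries, with cKO library 2 only slightly above control library 1 (log2 fold change 1.11 ± 0.24, limma adjusted p = 0.043). Its call was lost after TMM (limma adjusted p = 0.16) and by edgeR (0.10). Ikzf1, the founding member, had 29874, 21944 and 19723 in control and 17919, 19772 and 21766 in cKO libraries and overlapped. Ikzf2, the gene of Helios, was higher in all cKO libraries at 15486, 13137 and 11975, against 4844, 2515 and 7335 in controls. It did not pass (log2 fold change 1.59, limma adjusted p = 0.067, 0.88 against control library 3 alone). Runx3, which iNKT1 cells share with cytotoxic T cells, overlapped (-0.14). Of 11 genes of this list, 1 rose and 0 fell.

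Klf6, a zinc finger factor, rose from values of 4109, 3403 and 4083 to 10954, 7147 and 9555 (log2 fold change 1.24, limma adjusted p = 0.043, 0.13 after TMM). Rbpj, the DNA-binding partner of activated Notch, rose from 1077, 1650.2 and 3129.9 to 8262, 7136 and 5720.1 (1.97, 0.026, 1.15 against control library 3 alone). Neither pair of groups overlapped: the lowest cKO library was 1.74 times the highest control for Klf6 and 1.83 times for Rbpj. Atn1, the gene of the corepressor atrophin-1, rose by 1.99 (limma adjusted p = 0.0096) and Trerf1, a zinc finger regulator, by 4.95 (0.033). Trerf1 was at 14.6, 4.65 and 214 in controls, so most of its control signal came from library 3, and its log2 fold change was 1.94 without the other controls. Zhx3, a zinc finger and homeobox repressor, fell from 7019.9, 6032 and 2662 to 1226, 1366 and 1222 (log2 fold change -1.93, limma adjusted p = 0.043, -1.07 against control library 3 alone). The list of lineage regulators, which holds Tbx21, Gata3, Zbtb16 and other factors of T cell subsets, had 27 tested genes and 0 calls. Its median was 0.18 (-0.12 after TMM). Zbtb16, the gene of PLZF that marks all iNKT cells, had 1661, 2905 and 3305 in control and 2346, 3292 and 2727 in cKO libraries, Id2 had 16956, 16050.3 and 16057 in control and 14959, 18284 and 13531 in cKO libraries and Zfp683 (Hobit) had 12116, 7152 and 10459 in control and 11182, 12261 and 10778 in cKO libraries. All 3 overlapped.

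**Figure D3:**
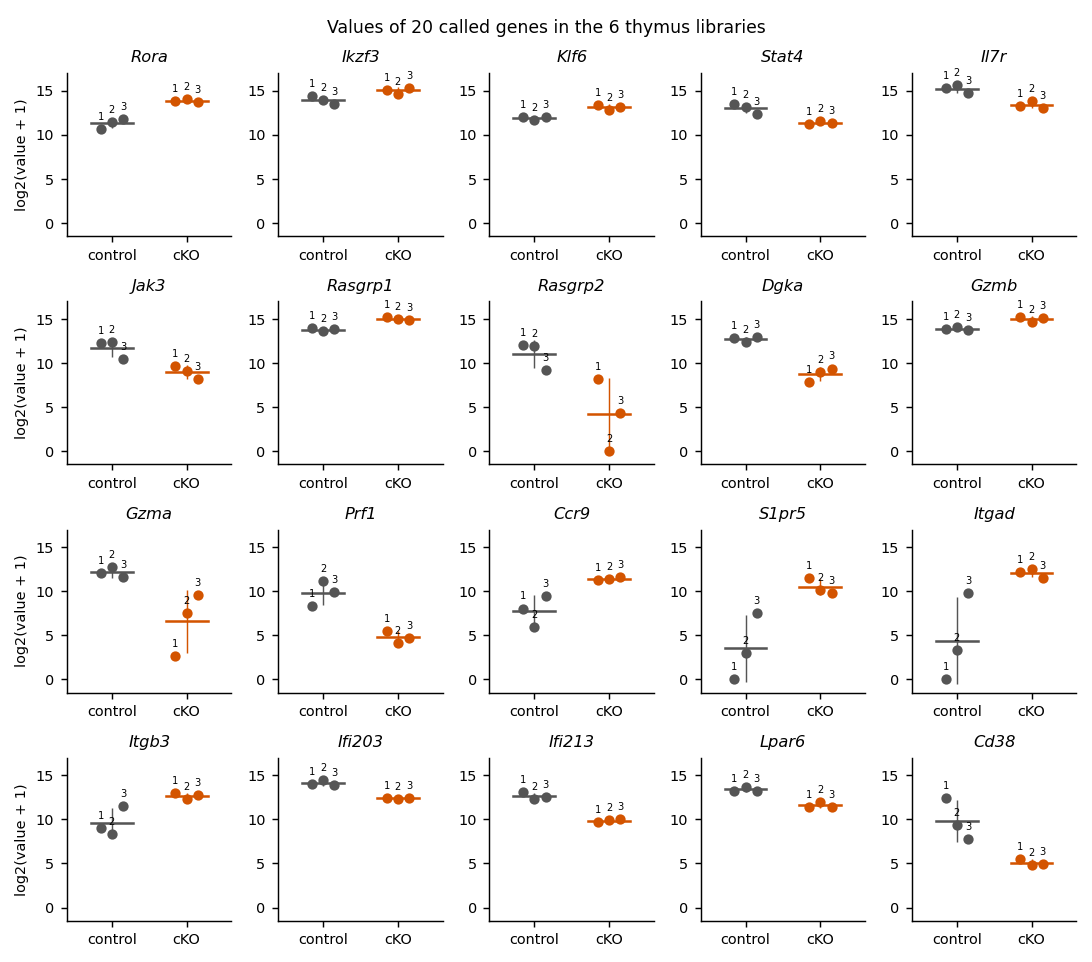
Log2(value + 1) of 20 called genes in the 3 control (grey) and 3 cKO (orange) thymus libraries. Points are single libraries with their number, the horizontal bar is the group mean and the vertical line spans 1 SD on each side. Rora, Gzmb, Dgka and Ifi203 have tight groups that lie apart, while in Itgad and S1pr5 the control libraries are spread from no read to near the cKO values.

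Between the T cell receptor and Ras, diacylglycerol (DAG) is the relay: it activates RasGRP exchange factors, and DAG kinases remove it. Of 24 tested genes of Ras and DAG signalling, 1 rose and 2 fell, and the list median was 0.27 (-0.02 after TMM). Dgka, the gene of DAG kinase alpha (chromosome 10, 128720134 to 128744855, minus strand), had 7373, 5567 and 7679.9 in control and 231, 516 and 668 in cKO libraries. The lowest control was 8.34 times the highest cKO library. Its log2 fold change was -3.98 ± 0.46 (limma adjusted p = 0.0004), and -4.16 without control libraries 1 and 2 (limma adjusted p = 0.027, within 3.9e-15 to 0.8 over the alternatives). Rasgrp1, the exchange factor that opens Ras after T cell receptor signals, had 15682, 12527 and 14849 in control and 39059, 31597 and 30056 in cKO libraries. Its lowest cKO library was 1.92 times its highest control (log2 fold change 1.22 ± 0.20, limma adjusted p = 0.0083, 1.17 without control libraries 1 and 2). Rasgrp2, whose product activates Rap1 and integrin adhesion, fell from 4273, 3871 and 582 to 299.7, 0 and 19.1 (-6.87 ± 1.51, limma adjusted p = 0.043). It was uneven within both genotypes, with cKO library 2 at no read and cKO library 1 at 0.515 times control library 3.

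The uncalled members of this list with the highest means were Rasal3 (17864, 18972 and 11579.5 in control and 6636, 10134 and 5564 in cKO libraries, log2 fold change -1.13, limma adjusted p = 0.074), Rasa1 (0.15), Prkch (0.4) and Prkcq (0.58). Rasal3, a Ras GTPase-activating protein of T cells, was lower in every cKO library but did not pass. Among 29 genes of T cell receptor signalling 1 rose and 0 fell. It was Themis, a thymocyte adaptor that tunes receptor signals, with 127, 1043 and 465 in control and 2681, 2359.5 and 3044 in cKO libraries. The log2 fold change was 2.76 ± 0.54 (limma adjusted p = 0.026) and 2.52 without control libraries 1 and 2 (limma adjusted p = 0.037, within 0.0012 to 0.8 over the alternatives). Cd3e (-0.11), Lcp2 (0.22), Ptpn22 (0.41) and Ptprc (0.31) overlapped between genotypes. Kcnn4, the calcium-activated potassium channel that sustains calcium entry in activated T cells, rose from 22.4, 20.8 and 662 to 3261, 1589.5 and 1279 (4.75, 0.036), and by 1.5 against control library 3 alone. Efhd2, a calcium-binding actin regulator, fell from 11152, 5819 and 5053 to 396, 1206 and 1257, with no overlap (log2 fold change -3.03 ± 0.51, limma adjusted p = 0.0085).

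Cytokine signals reach iNKT1 cells through receptor chains, JAK kinases and STAT factors, and SOCS and PIAS proteins hold them back. Of 25 cytokine receptors tested 0 rose and 1 (Il7r) fell, and of 25 genes of the JAK-STAT relay 2 (Socs2 and Pias4) rose and 2 (Jak3 and Stat4) fell. The relay's median was 0.10 (-0.19 after TMM and -0.15 without control libraries 1 and 2). Il7r, the IL-7 receptor alpha chain, had 39748, 50118 and 27831 in control and 10337, 14945 and 8534 in cKO libraries. The lowest control, library 3, was 1.86 times the highest cKO library, library 2, and the log2 fold change was -1.8 ± 0.32 (limma adjusted p = 0.012). Jak3, the kinase bound to the common gamma chain, had 5101, 5445 and 1420.2 in control and 809, 562 and 285 in cKO libraries. Control library 3 was 0.261 times the highest control, and the log2 fold change of -2.75 ± 0.58 (limma adjusted p = 0.038) was -1.49 without them. Stat4, which carries the IL-12 signal to the interferon gamma gene, fell from 11773, 9191 and 5409 to 2395, 3144 and 2592 (-1.64 ± 0.29, limma adjusted p = 0.013, -1.01 against control library 3 alone), with no overlap.

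Socs2, an inhibitor of growth hormone and cytokine receptors, rose from 405, 932 and 836 to 2683, 2983 and 5243 (log2 fold change 2.35 ± 0.40, limma adjusted p = 0.0085, 2.05 without control libraries 1 and 2). The lowest cKO library was 2.88 times the highest control. Pias4, a SUMO ligase that restrains STAT factors, was at 0, 1.18 and 5.06 in controls and 413, 37.4 and 849 in cKO libraries. Its controls held 5 reads in all, and the ratio of cKO to control read shares was 274 (95% exact conditional binomial interval 117 to 846, counting error alone). Pias4 passed the filter only through the cKO libraries, so that its ratio is a description and supports nothing. Of the relay's uncalled members, Jak1 (0.16), Jak2 (-0.08) and Stat3 (0.16) overlapped. The chains that iNKT1 cells use for IL-15 and IL-2, Il2rb and Il2rg, had log2 fold changes of 0.46 (limma adjusted p = 0.17) and 0.57 (0.29). Il18r1 had -0.68 (0.47) and Il12rb2 0.27 (0.68).

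Cytotoxic lymphocytes kill with perforin, which opens the target membrane, and granzymes, proteases that enter through it. Of 19 tested granule genes 1 (Gzmb) rose and 2 (Gzma and Prf1) fell. Gzmb had 15046, 17618 and 14109 in control and 39803, 26034 and 34870.1 in cKO libraries, with no overlap. The log2 fold change was 1.09 ± 0.23 (limma adjusted p = 0.039) and 1.23 without control libraries 1 and 2. The call was lost after TMM (0.79, limma adjusted p = 0.16) and by edgeR (adjusted p = 0.076). Gzma had 4179, 7043 and 3087 in control libraries, and 5.14, 188 and 776 in cKO libraries, which spread 151-fold (-5.54 ± 1.18, limma adjusted p = 0.038, lost by edgeR at -3.88 with an adjusted p of 0.18). Prf1 had 323, 2220.0 and 974 in control and 43.1, 15.9 and 25.7 in cKO libraries, and its lowest control, library 1, was 7.49 times the highest cKO library (-5.03 ± 1.04, limma adjusted p = 0.033). The list median was 0.21 (-0.09 after TMM), beside 0.24 for all genes. Nkg7 (0.7), Srgn (0.21), Ctsw (-1.05) and Fasl (-0.24) overlapped between genotypes. Rnf19b, a RING ubiquitin ligase found on the granules of NK cells, rose from 2.26, 15.1 and 361 to 1382, 1234 and 1684, with nearly all control signal in library 3 (5.74, 0.032, 1.97 against library 3 alone).

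The list of terminal effector genes, which mark late CD8+ T cell and NK cell effectors, had 22 tested genes, 3 called higher (Ahnak, Gzmb and S1pr5) and 2 lower (Gzma and Prf1). Its median of 1.05 was above that of all genes, and it was 0.80 without control libraries 1 and 2, where that of all genes was -0.01. The list was chosen with earlier results of these data known, so its median is only a description. Ahnak, a giant scaffold protein beneath the plasma membrane that supports calcium entry, had 70688, 71326 and 64648 in control and 167954, 118283 and 131251 in cKO libraries. The highest control was 1.1 times the lowest, and the lowest cKO library was 1.66 times the highest control (log2 fold change 1.0 ± 0.16, limma adjusted p = 0.0064). The uncalled members with the highest means were Id2 (-0.08), Vim (0.37), S100a10 (0.81) and Tbx21 (0.95). Zeb2, chosen after its values were seen, had 2.26, 12.7 and 831 in control and 1053, 4575 and 1854 in cKO libraries and did not pass (limma adjusted p = 0.069, log2 fold change 5.96, 1.32 against control library 3 alone).

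Of 27 integrins and adhesion receptors 3 (Itgad, Itgb3 and Emb) were called higher and 1 (Cd93) lower, with a median of 0.14 (-0.16 after TMM). Itgad, the integrin alpha D chain that pairs with beta 2, had 0, 9.28 and 889 in controls, where library 1 held no read, and 4784, 5805 and 2947 in cKO libraries. Its log2 fold change of 7.69 ± 1.72 (limma adjusted p = 0.045) was 2.29 against control library 3 alone. Itgb3, which pairs with the alpha V chain, had 517, 324 and 2849 in control and 8251, 5206 and 6796 in cKO libraries (3.08, 0.012, 1.22 against control library 3 alone). Emb, a transmembrane glycoprotein of the immunoglobulin superfamily, had 0, 10.4 and 57.7 in control and 364, 329.9 and 653 in cKO libraries (5.6, 0.033, 2.87 against control library 3 alone). In all 3 genes control library 3 was the highest control and the groups did not overlap. Integrins with higher means, Itgal (0.47, limma adjusted p = 0.3), Itgb2 (0.14, 0.79) and Itgb1 (0.89, 0.081), were not called.

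S1pr5, a receptor for sphingosine 1-phosphate that NK cells use to leave bone marrow and lymph nodes, had 0, 6.97 and 184 in control and 2841, 1139 and 919 in cKO libraries. Control library 1 held no read, control library 3 was 0.201 times the lowest cKO library, and the log2 fold change of 6.97 ± 1.53 (limma adjusted p = 0.043) was 2.96 against control library 3 alone. It was the only call among 17 genes of egress and circulation (median 0.75, and 0.14 without control libraries 1 and 2). Ccr9, the receptor for the thymic and gut chemokine CCL25, had 262, 59.0 and 693 in controls and 2446, 2661 and 3037 in cKO libraries. The cKO libraries were tight, the lowest 3.53 times control library 3 (log2 fold change 3.61 ± 0.61, limma adjusted p = 0.0085, 1.96 against that library). Among 16 chemokine receptors 1 rose and 0 fell, and Cxcr6 (0.3), Ccr2 (0.9, limma adjusted p = 0.083) and Cxcr3 (0.17) were not called. Nrp2, a coreceptor for semaphorins and VEGF, rose from 163, 25.5 and 676 to 2814, 3403 and 1049.9 (3.92, 0.047, 1.67 against control library 3 alone). Lpar6, a receptor for lysophosphatidic acid, fell from 9817, 13468 and 9496 to 2777, 4047 and 2636, with no overlap (log2 fold change -1.8 ± 0.31, limma adjusted p = 0.0085).

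Checkpoint and costimulatory receptors gave 1 rise each. Btla, an inhibitory receptor for the TNF receptor family member HVEM, had 1145, 1886 and 3084 in control and 8272, 7525 and 6808 in cKO libraries (log2 fold change 2.0, limma adjusted p = 0.031, 1.28 against control library 3 alone). Tnfrsf9, the costimulatory receptor 4-1BB, had 219.8, 753 and 1071 in control and 4483, 5084 and 3991 in cKO libraries (3.0, 0.023). The lowest cKO library was 2.21 and 3.73 times the highest control, which was library 3 in both. These were 1 of 15 inhibitory receptors (median -0.04) and 1 of 18 costimulatory receptors (median 0.45, and -0.14 without control libraries 1 and 2). Cd160 (0.61), Cd28 (-0.13) and Icos (0.71) overlapped.

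Among surface proteins that fell, Clec2i, a C-type lectin recognised by NK receptors of the NKR-P1 family, was almost lost. Its values were 932, 2457 and 1561 in control and 2.06, 0 and 17.6 in cKO libraries. The lowest control was 52.8 times the highest cKO library (log2 fold change -8.63 ± 1.16, limma adjusted p = 0.0022, -8.66 without control libraries 1 and 2). Cd93, a C-type lectin-like adhesion receptor, had 582, 824 and 167 in controls and 1.03, 0 and 2.16 in cKO libraries, where 4 reads were left (ratio of control to cKO read shares 396, 95% interval 154 to 1457; limma adjusted p = 0.026). It too passed the filter only through the group where it was high. Cd38, an ectoenzyme that consumes NAD, had 5464, 667 and 211 in control and 44.1, 27.1 and 30.2 in cKO libraries (-4.75, 0.026). Control libraries differed 25.9-fold for Cd38, and the fall was -2.64 against control library 3 alone. Cd38 was the only call among 13 genes of NAD and ATP sensing. No called change was found among 23 Ly49 and other Klr receptors (median -0.22). Klrk1, the gene of NKG2D, was lower in every cKO library at 3404, 5497 and 5070.1, against 14029, 15445 and 11780.0, and did not pass (-1.58, 0.064). Klrd1 (-0.23) and Klrb1c (-0.09), which encodes NK1.1, overlapped.

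The PYHIN genes encode DNA sensors and nuclear regulators that interferon induces, and in the mouse they lie side by side on chromosome 1. Of 10 tested, 0 rose, 3 fell (Ifi203, Ifi204 and Ifi213), and all 10 had a negative log2 fold change. The median was -1.85, beside 0.24 for all genes, and -1.19 without control libraries 1 and 2. In 7 of the 10 the groups did not overlap, with cKO lower, as in 5.05% of all tested genes. Ifi203 had 16014, 23016 and 15154 in control libraries and a tight 5413, 5222 and 5592 in cKO libraries (log2 fold change -1.71 ± 0.23, limma adjusted p = 0.0022). Ifi213 had 8744, 5041 and 5849.9 and 820.2, 972 and 1015 (-2.77 ± 0.40, 0.0044). Ifi204 was left with 1 read in cKO thymus, against 571, 231 and 263 in controls, a ratio of read shares of 1069 (95% interval 191 to 42258), and it passed the filter only through the controls. Each of the 3 was lower in every cKO library than in any control.

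Along the cluster, Ifi208 just missed the threshold at 6458, 3926 and 4659 in control and 436, 1469 and 1510.5 in cKO libraries (log2 fold change -2.31, limma adjusted p = 0.0504). Aim2, the sensor that starts an inflammasome, had 1758, 1915 and 1578 in control and 147, 984 and 586 in cKO libraries (-1.99, 0.15), and Mndal, Ifi209 and Ifi206 had -0.76, -0.72 and -0.52. Aim2, Mndal and Ifi209 did not overlap between genotypes, and Ifi206 did. Close copies in this family can share reads, and Ifi203 overlaps Mndal on the same strand, so that how reads were divided between them is uncertain. Slfn5, of the interferon-induced Schlafen family, fell from 2659, 568 and 1535 to 3.08, 73.8 and 4.37 (log2 fold change -6.81 ± 1.20, limma adjusted p = 0.011). Of 7 Schlafen genes it was the only call, 6 were negative and the median was -0.70. The type I interferon response list had 32 tested genes and 0 calls, with 21 negative and a median of -0.53. In 11 of the 32 all cKO libraries lay below all controls, beside 5.05% of all tested genes. Parp14 (-0.72, 0.28) and Trim30a (-0.66, 0.37) were among the 11. The interferon gamma GTPases had 14 tested genes, 0 calls, 12 negative and a median of -0.47. Serpina3g, a protease inhibitor of activated lymphocytes, fell from 3585, 25.5 and 605 to 0, 0 and 8.06, with a 141-fold spread in the controls (-7.53, 0.046). Its close copies make its reads uncertain too.

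**Figure D4:**
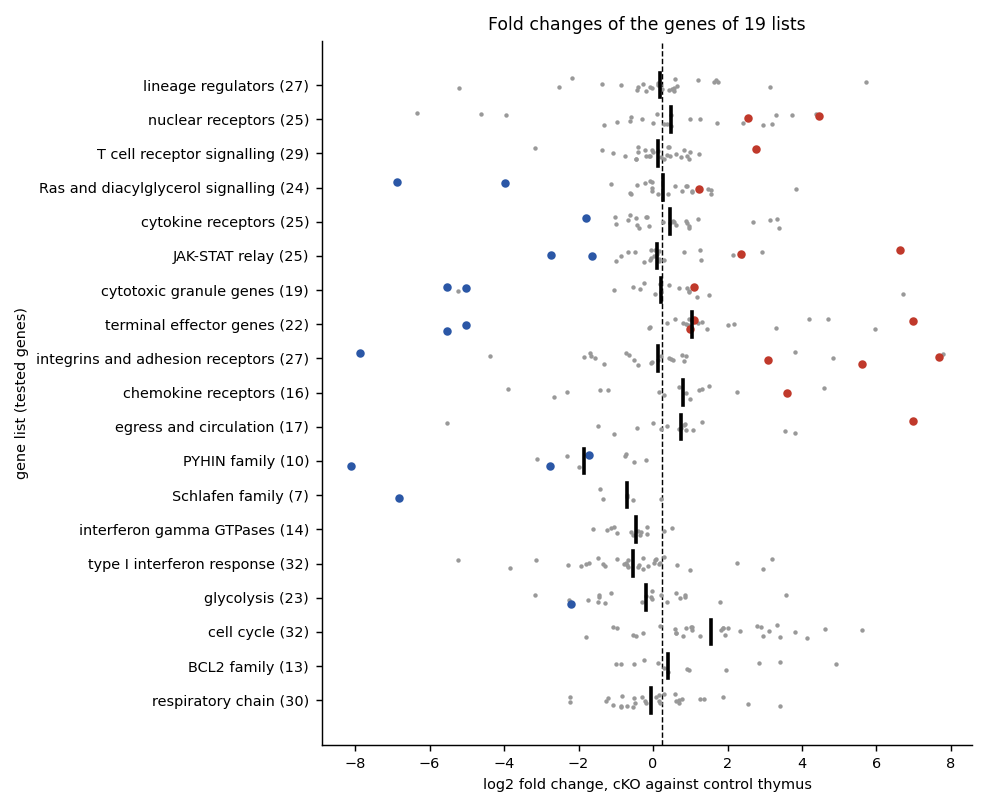
Log2 fold changes of the tested genes of 19 lists, 1 point a gene, with the number of tested genes in brackets. Large red points were called higher and large blue points lower in cKO thymus, black bars are list medians and the dashed line is the median of all tested genes (0.24). All 10 PYHIN genes lie below 0, and the cell cycle and terminal effector lists have medians of 1.55 and 1.05. The lists were chosen with earlier results of these data known.

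Of 27 glycosyltransferases and related enzymes tested, 2 rose (Chst2 and Gcnt2) and 0 fell, with a median of -0.14. Chst2, a sulfotransferase that helps to make L-selectin ligands, had 138, 217 and 762 in control and 3762, 4869.5 and 2823 in cKO libraries. The lowest cKO library was 3.7 times control library 3 (log2 fold change 3.71 ± 0.61, limma adjusted p = 0.0084, 2.29 against that library). Gcnt2, which makes branched I antigen chains, had 0, 5.81 and 86.5 in control and 294, 433 and 617 in cKO libraries (5.66, 0.043, 2.29 against control library 3 alone). Outside that list, Hs3st3b1, a heparan sulfate sulfotransferase, fell from 3489.8, 9378 and 2624 to 284, 129.9 and 726, with no overlap (-3.88 ± 0.63, limma adjusted p = 0.0083). Pmm2, a mutase that feeds mannose into glycosylation, fell (-1.88, 0.044), as did Prkcsh, the beta subunit of glucosidase II in the endoplasmic reticulum (-2.93, 0.026). Lman1, a cargo receptor between the endoplasmic reticulum and Golgi, rose (3.82, 0.026, 2.09 against control library 3 alone). Podnl1, a leucine-rich repeat protein of the extracellular matrix, fell from 5170.2, 3915 and 1320.0 to 205, 199 and 328 (-3.65 ± 0.54, limma adjusted p = 0.0044).

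Called metabolic genes, most of them in no list, are given with their log2 fold change and limma adjusted p. Among the rises were Etfb, an electron carrier of fatty acid oxidation (3.24, 0.043, and 1.55 against control library 3 alone), Ampd2, an AMP deaminase (3.17, 0.044), and Slc25a24, a mitochondrial ATP carrier (2.0, 0.033). Tecr, which completes the elongation of very long chain fatty acids (1.75, 0.043), and Atp8a1, a phospholipid flippase (1.39, 0.044), rose as well. Tecr moved to 0.63 against control library 3 alone. Eno1, the glycolytic enzyme enolase, had 6592, 3042 and 3221 in control and 526, 1586 and 772 in cKO libraries and did not overlap (-2.22, 0.044). It was the only call among 23 glycolytic genes, of which 15 were negative (median -0.19). Ldha (0.21), Gapdh (-0.3) and Pfkp (0.74) overlapped between genotypes. The respiratory chain list had 30 tested genes, 0 calls and a median of -0.07 (0.16 without control libraries 1 and 2).

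The next genes belong to no list. Ints7, a subunit of the Integrator complex that processes small nuclear RNA, had 2355, 1324 and 1217 in control and 124, 87.8 and 178 in cKO libraries (log2 fold change -3.63 ± 0.61, limma adjusted p = 0.0085). Bysl, needed to build the small ribosomal subunit, fell by 3.27 on the log2 scale (0.026), and Noa1, a GTPase of mitochondrial translation, by 4.33 (0.043). Rps16, a protein of the small subunit, had 10929, 7003 and 9569 in control and 1652, 4123 and 2537 in cKO libraries (-1.8, 0.017). Each control library of these genes was above each cKO library. Ddx43, an RNA helicase, rose (3.07, 0.047).

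Cytoskeletal, trafficking and kinase genes that fell were Myo6, a myosin that walks to the minus end of actin, with 1704, 1303 and 1419 in control and 179.6, 6.53 and 30.2 in cKO libraries (-5.4, 0.023), Gmfg, which debranches actin (-3.69, 0.043), Kif21b, a kinesin of T cells (-1.48, 0.045, and -0.93 against control library 3 alone), and Ipcef1, a partner of cytohesin exchange factors (-1.37, 0.034). Cfap54, a protein of motile cilia, had 379, 454 and 897 in controls and 3 reads in cKO thymus, a ratio of read shares of 560 (95% interval 191 to 2720). Mob3b, of the MOB kinase activators, had 271, 170.0 and 866 and 1 read, a ratio of 1255 (225 to 49599). Both passed the filter only through the control libraries, and their ratios are descriptions. The call of Cfap54 held without any single library, but this adds no support, as the filter helped to fix its separation. Efr3a, which anchors a phosphatidylinositol kinase at the plasma membrane (-1.74, 0.015), Slc4a7, a bicarbonate transporter (-3.75, 0.033), Dpp8, a dipeptidyl peptidase (-1.63, 0.04, and -0.92 against control library 3 alone), and Rcbtb2 (-1.91, 0.039) also fell. Glipr2, a Golgi protein, had 2777, 838 and 32.6 in control and 3.08, 12.1 and 2.9 in cKO libraries (-6.17, 0.043), and -2.5 against control library 3 alone.

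Other rises were led by Nebl, an actin-binding protein related to nebulin, with 0, 12.7 and 278 in control and 4343, 1529.7 and 1274 in cKO libraries (7.01, 0.026), and Mansc1, a transmembrane protein, with 0, 3.5 and 48.9 in control and 2221, 248 and 244 in cKO libraries (6.39, 0.034). Dzank1, a protein with zinc finger and ankyrin repeats, had 12.4, 3.5 and 204 in control and 834, 1205 and 1152 in cKO libraries (5.51, 0.036). In these 3 the control reads lay mostly in library 3, and against it alone the log2 fold changes were 2.87, 3.36 and 2.36. Cobll1, an actin regulator related to cordon-bleu, had 107, 228 and 1002 in control and 5663, 5568 and 3504 in cKO libraries (log2 fold change 4.04 ± 0.66, limma adjusted p = 0.0083, 2.26 against control library 3 alone), and it did not overlap. Aplp2, an amyloid precursor-like protein that binds MHC class I, rose from 1791, 399 and 1599 to 8396, 8332 and 5825 (2.82, 0.0095). Rnf157, a RING ubiquitin ligase (3.26, 0.0085), Dennd4c, an exchange factor of a Rab GTPase (1.85, 0.014), and Tmem131 (1.61, 0.043) rose too.

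Among lists with no or few calls, the cell cycle genes (32 tested, 0 called) had a median of 1.55 with 26 positive, beside a median of 0.24 for all tested genes. Without control libraries 1 and 2 the median of the cell cycle list was 0.44. Mki67, a marker of cycling cells, had 1670.4, 2098 and 2380.4 in control and 3150.4, 1827 and 9189.8 in cKO libraries and overlapped. The BCL2 family (13 tested) had 0 calls and a median of 0.40 (-0.16 without control libraries 1 and 2), with Bcl2 at 0.29 and Mcl1 at -0.25. Secreted cytokines and chemokines (18 tested) and GIMAP GTPases (8 tested) had 0 calls and medians of 0.07 and 0.07 (-0.23 and -0.23 after TMM). Genes of memory and quiescence (18 tested) had 0 rises and 1 fall, that of Il7r, while Satb1 was at -0.2.

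Markers of other cells that the sort could hold were checked beside these results. Of 14 macrophage and dendritic cell markers, 11 were in the table and 8 tested, with 0 called. Their summed value was 10.7 to 552 in control and 2553 to 6896 in cKO libraries, and the groups did not overlap. In each library but control library 1, where Cd68 made up nearly all of it, most was Itgax, an integrin chain that NK and T cells also express, at 0, 5.81 and 444 in control and 6035, 2189 and 2494 in cKO libraries. List members Adgre1, C1qb, C1qc and Mpeg1 had no reads in thymus. Other members had some: Cd74 was at 0, 2.34 and 8.82 in control and 692, 35.5 and 18.4 in cKO libraries, without overlap, Csf1r was at 0, 0 and 12.6 and 114, 0 and 38.3, and H2-Aa held 51 reads in cKO library 1. Summed B cell markers ran from no read in control library 1 to 311 in control, and from 12.4 to 178 in cKO libraries. Of 12 neutrophil and 12 endothelial markers, 1 and 2 were in the table. Markers of NK and innate lymphoid cells summed to 16040.5 to 18536 in control and 17016 to 20164 in cKO libraries. Of 8 tested, 1 (Rora) was called higher. Fcer1g (-3.51, 0.062), Itga1 (-1.56, 0.06) and Klri2 (-2.86, 0.46) were lower in every cKO library without passing. Regulatory T cell markers summed to 5889.5 to 16143 in control and 13379 to 19578 in cKO libraries. Gamma delta T cell markers had 12266.5 to 18829 and 11430 to 18175.5. Immature thymocyte markers summed to 2387 to 8442 in control and 2739 to 4350 in cKO libraries. Within that sum Cd4, which mature iNKT cells can also carry, was lower in every cKO library at 91.4, 376 and 734. Its controls had 2579.5, 7393 and 985, and it did not pass (-3.17, 0.077, -1.74 against control library 3 alone). Themis, in the same list, was called higher. The type 2 and type 17 subsets of iNKT cells had summed markers of 6424 to 13475 and 7.14 to 2001 in controls, against 8556 to 14803 and 87.4 to 525 in cKO libraries. The part of these cells in the rise of Itgad, S1pr5 and other integrin or effector genes was not tested.

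Position gave several called genes a called neighbour. Of 82 called genes with a position, 13 lay within 500000 bases of another. The windows of the 82 held from 0 (Klf6) to 49 (Pias4) tested genes, and 0.636% of all tested genes were called. The share of all tested genes with a called gene that near was not computed, so the count is only a description. Among the 13 were Ifi203, Ifi204 and Ifi213, all lower, Rcbtb2 and Lpar6, both lower, and Rps16 and Gmfg, both lower. Ikzf3 and Nr1d1 both rose, while Trerf1 rose and Bysl fell. Rb1, on the other strand of chromosome 14, overlaps part of Rcbtb2 and covers Lpar6, and had 932, 3239 and 3401 in control and 3475, 4584 and 2865 in cKO libraries (log2 fold change 0.72, limma adjusted p = 0.5). It overlapped between genotypes. In all, 25 called genes overlap another tested gene, in 32 pairs of which 26 are on opposite strands. The sources used here do not state whether strand was used in counting, so reads of such pairs cannot be told apart. None of the partners was called (smallest limma adjusted p = 0.12). Thra, opposite Nr1d1, had a log2 fold change of 3.29, Pmel, opposite Dgka, -3.73, and BC035044, opposite Clec2i, -3.97.

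The same contrast in liver showed how far the thymic changes were shared. Of 13058 genes, 66 (0.505%) were called in liver, 41 higher (0.314%) and 25 lower (0.191%). The liver comparison shares no library with the thymus comparison, but all 12 share 1 estimate of spread. Of the 83 thymic calls, 12 were called in liver in the same direction (14.5% of the thymic and 18.2% of the liver calls) and 0 in the opposite one. The 5 shared rises were Ahnak, Gzmb, Aplp2, Nrp2 and Itgad, and the 7 shared falls were Ets1, Ifi203, Ifi213, Lpar6, Rcbtb2, Cd93 and A630023P12Rik. Liver log2 fold changes were 2.85 for Gzmb, 5.97 for Nrp2, 9.43 for Itgad, -2.81 for Ifi213 and -8.24 for Cd93, against 1.09, 3.92, 7.69, -2.77 and -7.86 in thymus. Of the 83, 73 (88.0%) had the same sign in liver, beside 58.2% of all tested genes.

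Several thymic calls had liver estimates near 0, among them Stat4 (0.01), Il7r (-0.19), Klf6 (-0.1), Itgb3 (0.14), Lman1 (0.02) and Prkcsh (0.12). Gzma had 1.9 in liver and -5.54 in thymus, opposite signs. Whether the genotype effect in liver differed from that in thymus was tested for every gene, and none of the 83 passed (1 of all tested genes did, 0.00766%). The smallest limma adjusted p among them was 0.13, that of Gzmb, and 45 had an unadjusted p under 0.05 for the difference. DESeq2 called 72 of its own thymic calls on this test and edgeR 0. These genes are therefore not shown by the main limma fit to respond differently in thymus and liver.

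**Figure D5:**
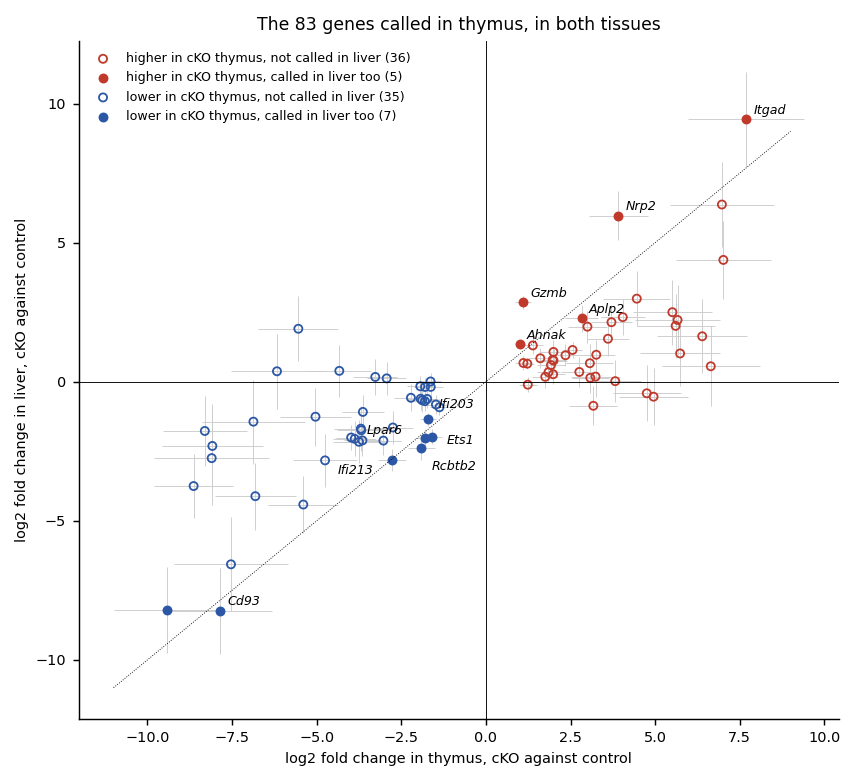
Log2 fold change in thymus on the x axis and in liver on the y axis for the 83 genes called in thymus, with grey bars of 1 SE. Red genes were higher and blue genes lower in cKO thymus, filled where also called in liver, and the dotted line marks equal change. Most points lie on the same side of 0 in both tissues, and Gzmb lies above the dotted line.

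At the filter's edge, 915 of the genes kept had a value of at least 10 in exactly 3 of the 6 thymus libraries, with a median mean value of 44.8. A further 993 had it in exactly 2 and were left out, with a median of 22.8. In 74 of the 915 the 3 libraries were all cKO and in 23 all control, and 7 of the 83 called genes were among the 915. These 7 (A630023P12Rik, Cfap54, Ifi204, Mob3b, Cd93, Serpina3g and Pias4) reached a value of 10 only in the group where they were high. Their separation and ratios are therefore descriptions that the filter helped to fix.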

How the data were processed

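RNA was measured in 12 libraries of sorted iNKT1 cells, 6 of them from thymus. The submitters' processing notes list HTSeq 0.6.1 (a read counter), STAR and TopHat2 2.1.0 (aligners), Trimmomatic 0.33, DESeq2 and build mm10, with no role or order. The use of strand and the treatment of reads of close copies are not given in the sources used here. The authors deposited 1 table of 14004 genes in 12 libraries, whose values are a library-size adjusted signal. Whole reads were recovered by inverting a negative binomial quantile adjustment, which placed 98.5% of thymus values within 0.1 of a whole read; that this adjustment was used is inferred from the values. They give depths of 18.5 M to 32.2 M reads (M, 1e6) per thymus library and served edgeR 4.0.16 and DESeq2 1.42.0 as alternatives.

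Names and positions come from GENCODE M21 (GRCm38, the assembly mm10 names), matched by identifier for 13363 genes (95.4%), and promoter sequences from RefSeq. Genes with a value of at least 10 in at least 3 of the 12 libraries were fitted with limma 3.58.1 (R 4.3.3) on log2(value + 1), with a mean per group, a variance trend and no further term (degrees of freedom: 8 residual, 10.7 prior). The fit was tested on simulated data. Alternatives were the pseudocount, filters, rescalings, the 6 thymus libraries alone, a replicate block, weights, no trend and libraries left out. Genes were named by rule: every called gene with a usable symbol (80 of 83, of which 1 is not reported here), values in every library for the 10 largest rises and falls whose higher group averaged 50 or more, for calls that held without any 1 library and for called list members, and up to 4 uncalled list members of highest mean. The members and the 47 gene lists were chosen with earlier results of these data known. Same-numbered control and cKO libraries did not deviate together in thymus (correlations of deviations 0.04, -0.10 and -0.08). In liver they did so weakly (0.078, 0.080 and 0.072, against -0.057 to -0.010 for pairs with different numbers). The main fit did not take the numbers to pair them, and the replicate block was run as an alternative.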

Additional observations from a re-analysis of the deposited data

Results flagged for a closer look

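Styk1, the gene of a receptor-like kinase of NK cells that was not called in thymus, was the only gene whose genotype effect differed between tissues in the main limma fit. In thymus its values were 3609.8, 4717 and 8599.9 in control and 16111, 10136 and 7747 in cKO libraries, and the groups overlapped. In liver they were 0, 5.98 and 0 in control and 3528, 2812 and 1628 in cKO libraries. On the log2 scale the cKO libraries were higher by 1.04 in thymus (adjusted p = 0.55 by limma) and by 10.06 in liver (adjusted p = 2.1e-07 by limma). The liver effect minus the thymus effect was 9.03 ± 0.99 (limma adjusted p = 0.00036; 0.00766% of tested genes were called on this test). In thymus, control library 3 was above cKO library 3. Other limma fits of the 12 libraries called from 1 gene (array weights) to 14 (no variance trend) on the test of the difference.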

How the results depend on the processing

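Depth limits genes left with few reads, whose ratios carry the wide counting intervals given above. The 83 calls in thymus, 12 shared with liver and 0 with a differing effect among them changed as follows. Calls in thymus were 129 with a pseudocount of 10, 36 with a replicate block over 12 libraries, 28 with array weights, 4 without a variance trend, 51 by edgeR and 619 by DESeq2 on recovered reads. They were 22 without the 2 liver libraries under 5 M reads, 4 without control thymus libraries 1 and 2, and 21 (without cKO library 3) to 541 (without control library 3) without single thymus libraries. In the 6 thymus libraries alone limma called 0, with or without the replicate block (714 and 952 genes had an unadjusted p under 0.05). The labels give same-numbered libraries only a number, and whether a call lost under the block is a weaker effect was not tested. Genes shared with liver were 26 with a pseudocount of 10, 32 after quantile normalisation, 5 with the replicate block, 20 with array weights, 1 without a trend, 94 by DESeq2, 3 without control thymus libraries 1 and 2, 1 without the shallow liver libraries, and 4 (without cKO library 3) to 33 (without control library 3) without single libraries. Thymic calls with a differing effect in liver were 1 without a trend, 72 by DESeq2 and 0 to 8 without single libraries, 8 being without control library 3. Ets1 lost its call in the 6 libraries alone (-1.58, limma adjusted p = 0.59), with the replicate block in them (-1.58, 0.8), without a trend (-1.58, 0.2) and without control libraries 1 and 2 (-1.31, 0.4); without single libraries its log2 fold change ran from -1.88 to -1.36, and it lost its call without cKO library 3. The cause of these shifts was not tested. None of the 83 calls changed sign under any alternative run. Medians of gene lists did: of 47 lists 11 changed sign after TMM, 9 after quantile normalisation and 15 without control libraries 1 and 2. The remaining filters, pseudocount and scalings left the thymic count between 77 and 117.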
